A study of Sus scrofa with 12 samples.

Results

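The cell cycle and mitosis genes are a list of 54 genes that act when a cell copies its DNA and divides. They were listed by name, with no threshold on their values, and split by role into 17 genes of S phase and 37 genes of mitosis. Of the 54 genes, 51 had an identifier among the 35682 genes of the count files, 16 of S phase and 35 of mitosis. MKI67, AURKA and RRM2 had no matching identifier in the table of gene names and were not analysed here. Positions are those of the RefSeq annotation of Sscrofa11.1, the build of the files. Gene expression was measured by poly(A) RNA sequencing in 12 libraries, 1 from the mid border zone and 1 from the mid remote zone of the left ventricle of 6 female Yorkshire pigs with the numbers 1022, 1322, 1323, 1623, 1922 and 3622. All animals, in both regions, had a balloon occlusion of the left anterior descending coronary artery for 60 minutes followed by reperfusion, and were immunosuppressed from day 9 after it with 3 drugs, tacrolimus at a daily dose of 0.75 mg per kg, prednisolone at 20 mg per day, and mycophenolate mofetil at 500 mg per day. On day 14 each animal received either vascular organoids made of human endothelial progenitor cells and smooth muscle cells or fibrin glue alone on the heart. Which animal received which was not used here, so both regions mix the 2 treatments. The border zone is the myocardium next to the infarct and the remote zone is myocardium away from it. The extraction text of the labels names the border zone for all libraries, and the region was taken from each library's title.

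Cyclin-dependent kinases drive the cell cycle, and each works with a cyclin that is made and destroyed once per cycle. Cyclin E and the E2F transcription factors start S phase, in which the MCM helicase opens the DNA. Cyclin B with CDK1, the Polo and Aurora kinases, the condensins, the spindle motors and the anaphase-promoting complex then run mitosis. Transcripts of mitosis are held low in resting cells and switched on late in the cycle through CCAAT boxes and a short element called the cell cycle homology region, bound by the MuvB, B-MYB and FOXM1 proteins. Adult cardiomyocytes rarely divide, while fibroblasts, endothelial cells, smooth muscle cells and macrophages of an injured heart can. The pigs of this study were young, not adult, and whether their cardiomyocytes divided was not tested. Bulk RNA does not tell these cells apart, and more dividing cells and more RNA per dividing cell cannot be told apart in it.

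The promoters of the 3 mitosis genes and the 3 S phase genes with a promoter window and the lowest p-values in the border zone comparison are shown, because members of this list share such elements. MCM5 also ranked among the lowest S phase p-values but had no promoter window. Each window holds 250 bases before and 50 bases from the start of the gene in the RefSeq annotation of Sscrofa11.1, read 5′ to 3′ on the gene's strand. Capitals mark a CCAAT box (CCAAT, or ATTGG on the other strand), a cell cycle homology region (TTTGAA or its reverse complement) or an E2F site (TTTCCCGC, TTTCGCGC, TTTGCCGC or TTTGGCGC, or a reverse complement). The mitosis genes were KIF20A, a kinesin of cytokinesis, at chr2:140202066-140202365 on the plus strand, HMMR, a spindle assembly protein, at chr16:60332362-60332661 on the minus strand, and CENPF, a kinetochore protein, at chr9:129012192-129012491 on the minus strand. The S phase genes were TYMS, thymidylate synthase, at chr6:105660230-105660529, and the helicase subunits MCM3 at chr7:46104376-46104675 and MCM4 at chr4:79686915-79687214, all on the minus strand.
KIF20A: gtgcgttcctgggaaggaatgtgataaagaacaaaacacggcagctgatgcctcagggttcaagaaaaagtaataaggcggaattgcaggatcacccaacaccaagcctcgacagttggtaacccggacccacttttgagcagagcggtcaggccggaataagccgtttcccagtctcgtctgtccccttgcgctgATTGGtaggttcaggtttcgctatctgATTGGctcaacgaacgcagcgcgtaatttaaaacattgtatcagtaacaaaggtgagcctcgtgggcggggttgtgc
HMMR: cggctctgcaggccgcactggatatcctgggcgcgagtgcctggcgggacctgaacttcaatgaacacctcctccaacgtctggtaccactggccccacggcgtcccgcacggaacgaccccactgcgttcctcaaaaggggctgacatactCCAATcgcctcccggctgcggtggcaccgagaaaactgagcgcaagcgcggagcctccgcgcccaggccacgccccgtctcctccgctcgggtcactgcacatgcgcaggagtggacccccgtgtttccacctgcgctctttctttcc
CENPF: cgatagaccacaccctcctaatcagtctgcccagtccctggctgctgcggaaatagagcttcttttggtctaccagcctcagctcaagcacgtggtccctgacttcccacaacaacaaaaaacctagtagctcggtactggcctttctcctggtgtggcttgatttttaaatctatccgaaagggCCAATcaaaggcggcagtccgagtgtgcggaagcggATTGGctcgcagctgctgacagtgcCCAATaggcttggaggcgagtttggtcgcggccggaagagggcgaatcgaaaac
TYMS: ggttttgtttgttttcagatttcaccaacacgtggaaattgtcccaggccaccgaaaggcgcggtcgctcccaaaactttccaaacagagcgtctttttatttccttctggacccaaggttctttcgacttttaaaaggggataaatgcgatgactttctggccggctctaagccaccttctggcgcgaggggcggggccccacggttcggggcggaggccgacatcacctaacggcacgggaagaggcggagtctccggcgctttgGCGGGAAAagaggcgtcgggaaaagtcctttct
MCM3: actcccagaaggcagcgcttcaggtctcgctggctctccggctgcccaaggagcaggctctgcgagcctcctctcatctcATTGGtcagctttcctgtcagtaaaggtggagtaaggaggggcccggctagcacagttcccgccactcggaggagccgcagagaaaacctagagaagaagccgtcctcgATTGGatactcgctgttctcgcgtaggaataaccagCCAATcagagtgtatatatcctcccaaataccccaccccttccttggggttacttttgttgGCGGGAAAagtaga
MCM4: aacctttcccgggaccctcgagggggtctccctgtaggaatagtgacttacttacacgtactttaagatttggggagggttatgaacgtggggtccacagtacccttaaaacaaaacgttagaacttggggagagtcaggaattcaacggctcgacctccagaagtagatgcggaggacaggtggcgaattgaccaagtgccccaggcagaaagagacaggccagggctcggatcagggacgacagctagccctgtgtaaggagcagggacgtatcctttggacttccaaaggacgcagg

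KIF20A carried 2 CCAAT boxes, HMMR carried 1 and CENPF carried 3, while TYMS carried 1 E2F site and MCM3 carried 3 CCAAT boxes and 1 E2F site. The MCM4 window held none of the motifs. Over the 50 members with a window, 76.0% held a CCAAT box, 38.0% a cell cycle homology region and 16% an E2F site, against 35.4%, 14.0% and 3.36% of the 19506 promoters of the genome read in the same way. Both a CCAAT box and a cell cycle homology region stood in 32.0% of the members and 5.54% of all promoters. Among the 35 mitosis genes 80.0% held a CCAAT box and 45.7% a cell cycle homology region, against 66.7% and 20.0% of the 15 S phase genes with a window. TOP2A and UBE2C had 5 CCAAT boxes each, the most of any member. These shares are descriptions of letters in a window, and no match says only that these letters are not in it.

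Total counts ran from 15130210 to 30526110 in the border zone libraries and from 20091415 to 31618680 in the remote zone libraries. Counts were scaled to CPM, the counts relative to the library size, with TMM factors, on which scale 1 count was worth 0.0294 to 0.0669 CPM. Many members were near the detection limit. In the remote zone 30 of the 51 members had a median under 1 CPM, 4 of S phase and 26 of mitosis. The border zone library of animal 3622 stood apart, with counts on 6127 (52.3%) of the 11724 genes that were at 0 in the other libraries, at a median of 4 counts where present. In that library the 51 members had at least 7 counts each, with a median of 45, and 46 of them were above the remote zone library of the same animal. The border zone library of animal 1022 also stood apart, and it was the highest border zone library for 42 of the 51 members. The shares of all genes beside the 46 and the 42 are not given here. Neither count is read as a trait of the members.

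Of the 51 members, 39 passed the expression filter of edgeR, 15 of S phase and 24 of mitosis, and 12 did not. The filter asks for enough counts in at least 6 libraries, so a low member can pass through the border zone alone, and counts over those that passed are descriptions. By the quasi-likelihood test of edgeR, adjusted by Benjamini-Hochberg over 13844 genes, 0 of the 39 members had an adjusted p-value under 0.05, against 2.07% of all genes tested. The lowest adjusted p of a member was 0.0646, that of KIF20A. At an unadjusted p-value under 0.05, 25 members were higher in the border zone and 1, AURKB, was lower, against 17.0% and 7.78% of all genes. By the Wald test of DESeq2, 15 of the same 39 members had an adjusted p-value under 0.05 and a higher level in the border zone, against 8.57% of all genes. The 15 were TYMS, MCM3, MCM4 and MCM5 of S phase, and CCNB1, FOXM1, TOP2A, TPX2, KIF11, KIF20A, CENPE, CENPF, PRC1, HMMR and CDC20 of mitosis. On simulated counts of this comparison DESeq2 called 25 unchanged genes and edgeR called 2. The log2 fold change was above 0 for 34 of the 39 members. Its median was 1.18 over the 39 members, 0.90 over S phase and 1.40 over mitosis, against 0.04 over all genes tested. Scaled by library totals alone, the median of all genes moved to 0.32 and that of the members to 1.53, and 16 of the 39 members were called, against 11.2% of all genes.

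**Figure D1:**
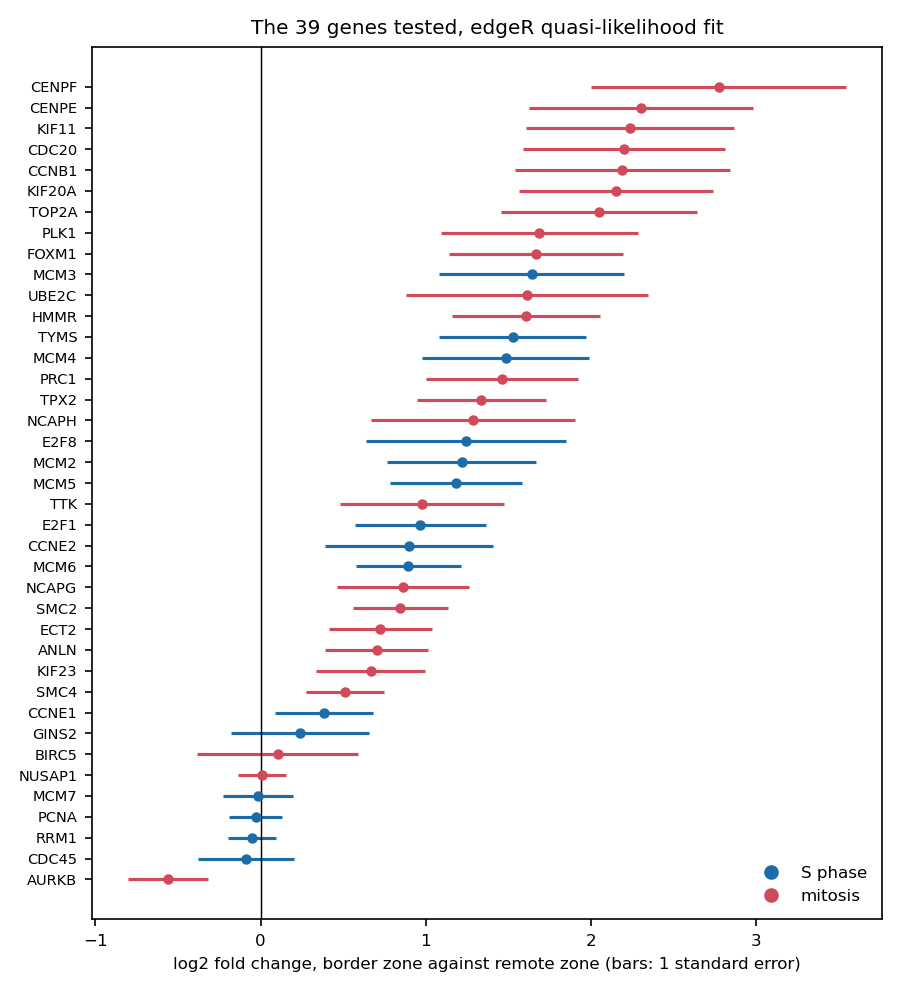
Log2 fold change of the border zone against the remote zone (x axis) for each of the 39 members tested, with bars of 1 standard error from edgeR's quasi-likelihood fit on 6 libraries a region. CENPF is at the top with 2.77, and AURKB is at the bottom with -0.56.

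As a summary per library, log2(CPM + 0.1) was averaged over the members of a list. The border zone mean of the S phase list was above the remote zone mean in 6 of 6 animals, by a median of 0.51 (SD 0.50, range 0.10 to 1.5). The mitosis list was higher in 6 of 6 animals, by a median of 0.87 (SD 0.88, range 0.28 to 2.65). The largest differences in both lists were those of animal 1022, with 1.5 and 2.65, followed by animal 3622 with 0.84 and 1.70. The smallest were those of animal 1322 for S phase and of animal 1922 for mitosis. Without animal 1022 the medians were 0.35 and 0.63. The size depended on the pseudocount, with medians of 0.58 and 1.11 at 0.01 CPM and of 0.31 and 0.42 at 1 CPM.

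**Figure D2:**
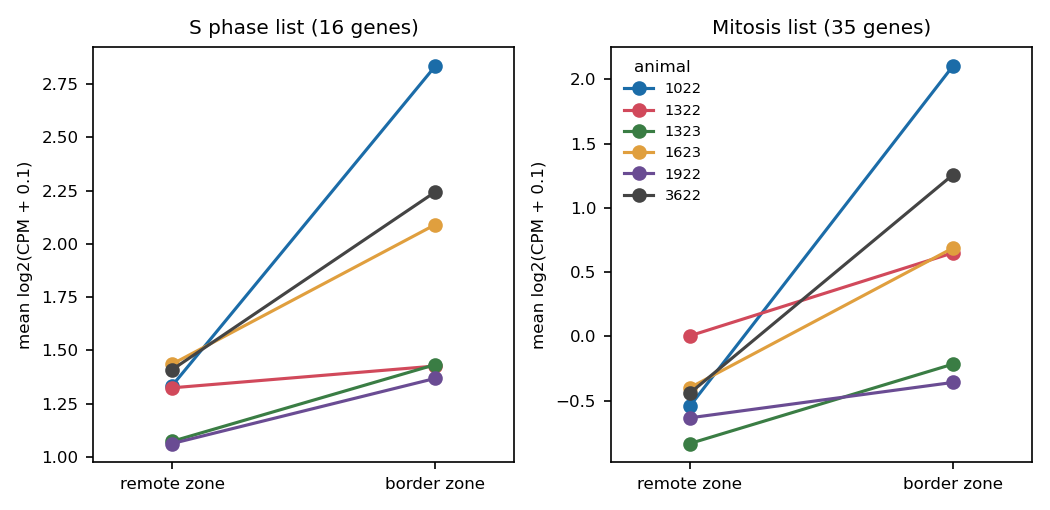
Mean log2(CPM + 0.1) of the 16 S phase and 35 mitosis genes (y axes) in the remote zone and border zone library of each animal, with a line for each of the 6 animals. Every line runs upward, and the steepest is that of animal 1022.

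In each of the 6 animals 16 of the 51 members had the higher value in the border zone, and 39 had it in 5 or 6 animals. The share of all genes higher in 5 or 6 animals is not given here. The 39 and the later counts of this kind, by role or under the filter, are thus descriptions. The 16 were TYMS, MCM2, MCM5, MCM6 and E2F1 of S phase and CCNA2, CCNB1, PLK1, TOP2A, TPX2, KIF11, KIF20A, PRC1, DLGAP5, CDCA8 and CDC20 of mitosis. Among the 39 tested, 13 were higher in all 6 animals, against 11.7% of all genes tested. AURKB was lower in all 6 animals, against 11.1% of all genes. The border zone and remote zone libraries overlapped for each member, so 0 members had all border zone libraries above or all below the remote zone libraries, against 1.99% and 0.701% of all genes.

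**Figure D3:**
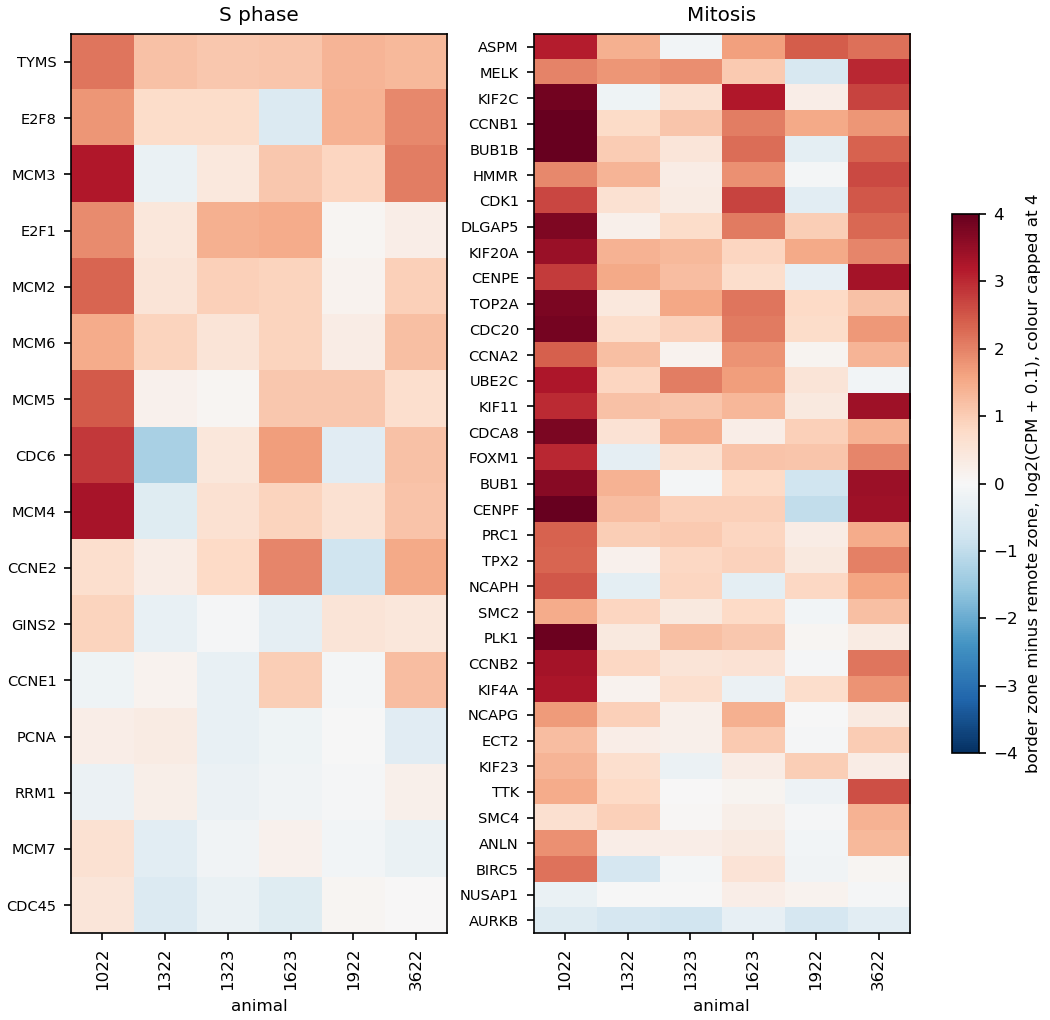
Difference between border zone and remote zone in log2(CPM + 0.1) for each of the 51 members (rows, ordered by the median over animals) in each of the 6 animals (columns), with red for higher in the border zone and the colour capped at 4. The column of animal 1022 is the darkest, and the bottom row of the mitosis panel, AURKB, is blue in all 6 columns.

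Of the S phase genes, TYMS (ENSSSCG00000040678, chr6:105642730-105660279, minus strand), which makes thymidylate for DNA, had a CPM of 1.36 at the lowest, 2.15 at the median and 6.48 at the highest in the border zone and of 0.468, 0.915 and 1.68 in the remote zone. It was higher in each animal, although the 2 ranges overlapped. Its log2 fold change was 1.53 (SE, its standard error, 0.445, edgeR adjusted p = 0.0785). RRM1, the large subunit of ribonucleotide reductase, which makes deoxynucleotides, had a median of 28.2 CPM (27.3 to 34.1) in the border zone and 32.6 CPM (23.4 to 37.2) in the remote zone, with a log2 fold change of -0.05 (SE 0.146, edgeR adjusted p = 0.86).

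MCM2 to MCM7 form the helicase that is loaded at origins before S phase. MCM3 had a border zone CPM of 1.35, 3.03 and 11.5 (lowest, median, highest) and a remote zone CPM of 0.884, 1.41 and 2.86, with a log2 fold change of 1.64 (SE 0.561, edgeR adjusted p = 0.11). MCM4 had 1.61, 3.39 and 15.7 CPM in the border zone and 1.3, 1.73 and 2.56 CPM in the remote zone, with a log2 fold change of 1.49 (SE 0.507, edgeR adjusted p = 0.11). Both were higher in 5 of 6 animals and lower in animal 1322. MCM5 had 3.0, 4.74 and 17.9 CPM in the border zone and 1.87, 3.19 and 3.83 CPM in the remote zone, with a log2 fold change of 1.18 (SE 0.397, edgeR adjusted p = 0.106). MCM2 had 2.12, 3.85 and 12.2 CPM in the border zone and 1.05, 2.36 and 3.28 CPM in the remote zone, with a log2 fold change of 1.22 (SE 0.453, edgeR adjusted p = 0.131). MCM2, MCM5 and MCM6 were higher in 6 of 6 animals, and animal 1022 gave the highest border zone library of MCM2 to MCM7. Without that animal the log2 fold changes of MCM2, MCM3, MCM4 and MCM5 were 0.75, 1.14, 0.66 and 0.64. MCM7 had a log2 fold change of -0.01, while those of the other subunits ran from 0.90 for MCM6 to 1.64 for MCM3, and the difference between subunits was not tested. MCM7 overlaps AP4M1 by 347 bases and MCM4 overlaps LOC102164310 by 10752 bases, both on the opposite strand, and the libraries were not directional, so reads of those stretches could be counted on either gene.

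PCNA, the clamp that holds DNA polymerase at the fork, had a CPM of 10.8, 15.6 and 20.1 in the border zone and of 14.6, 15.7 and 18.6 in the remote zone. It was higher in 2 of 6 animals, with a log2 fold change of -0.03 (SE 0.161, edgeR adjusted p = 0.927). CDC45, which joins the helicase when it fires, had 2.15, 3.11 and 5.75 CPM in the border zone and 2.60, 3.38 and 5.68 CPM in the remote zone, with a log2 fold change of -0.09 (SE 0.291, edgeR adjusted p = 0.883). With library totals in place of TMM, the log2 fold changes of PCNA, CDC45 and RRM1 changed sign, to 0.25, 0.26 and 0.21, while that of all genes had a median of 0.32. CDC6, which loads the helicase, was under the filter, with between 0 and 27 counts in a border zone library and between 1 and 5 in a remote zone library. The cyclin E and E2F genes were higher in the border zone of 3 animals for CCNE1, 5 for CCNE2, 6 for E2F1 and 5 for E2F8, with log2 fold changes from 0.39 to 1.24 and edgeR adjusted p from 0.16 to 0.439. That of E2F1 was 0.97, and 0.61 without animal 1022.

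**Figure D4:**
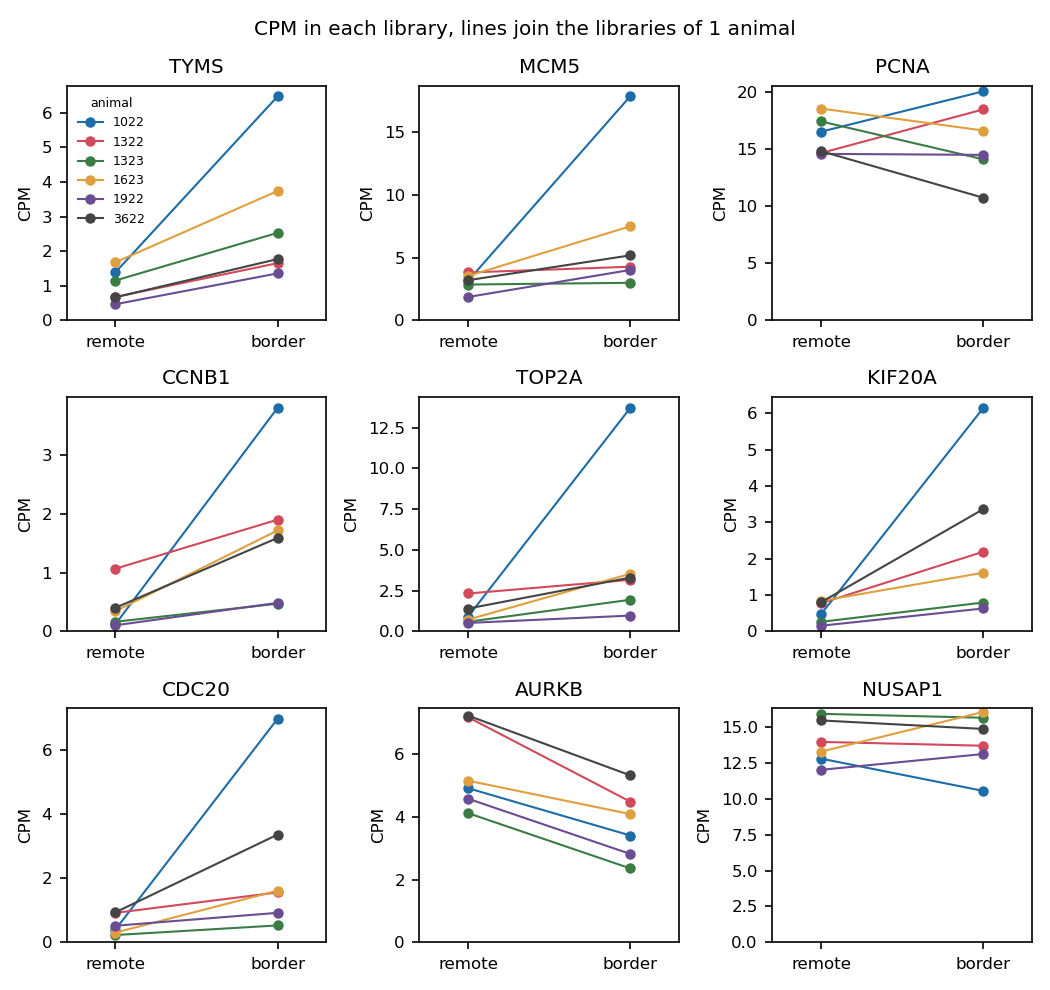
CPM (y axes, from 0) in the remote zone and border zone library of each of the 6 animals, joined by a line, for TYMS, MCM5 and PCNA of S phase and CCNB1, TOP2A, KIF20A, CDC20, AURKB and NUSAP1 of mitosis. The 6 lines of AURKB run downward, those of PCNA and NUSAP1 cross, and in the panels of TYMS, MCM5, CCNB1, TOP2A, KIF20A and CDC20 animal 1022 is the highest border zone point.

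Among the tested cyclins and kinases of mitosis, CCNB1 (cyclin B1, ENSSSCG00000029326, chr16:47338239-47348385, plus strand) had the largest log2 fold change. Its CPM was 0.471, 1.65 and 3.80 in the border zone and 0.104, 0.254 and 1.07 in the remote zone. It was higher in 6 of 6 animals, with a log2 fold change of 2.19 (SE 0.65, edgeR adjusted p = 0.0813). Without animal 1322, whose remote zone library was the highest of that region, its adjusted p by edgeR was 0.0456, and it was then the only member called, while 3.72% of all genes were called in that fit against 2.07% with all animals. Without animal 1022 its log2 fold change was 1.55 and its adjusted p by edgeR was 0.238. PLK1, the Polo kinase, was higher in 6 of 6 animals, with a log2 fold change of 1.69 that was 0.70 without animal 1022. CDK1, the kinase that cyclin B activates, was under the filter, with a CPM of 0.243, 1.28 and 3.06 in the border zone and of 0.153, 0.321 and 0.63 in the remote zone. CDK1 was higher in 5 of 6 animals, and its counts ranged from 4 to 70. CCNA2 (cyclin A2) was also under the filter, at 0.118, 0.662 and 1.88 CPM in the border zone and 0.0988, 0.221 and 0.277 CPM in the remote zone, and was higher in 6 of 6 animals.

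AURKB (ENSSSCG00000028924, chr12:53410833-53426165, minus strand), the kinase of the chromosomal passenger complex that corrects faulty spindle attachments, had lower values in the border zone. Its CPM was 2.35, 3.74 and 5.32 in the border zone and 4.12, 5.03 and 7.22 in the remote zone. Each animal had less in the border zone, while the 2 ranges overlapped. The log2 fold change was -0.56 (SE 0.242, edgeR adjusted p = 0.174, and 0.0837 with the animal as a replicate block), and -0.58 without animal 1022. With library totals it was -0.24, while the median of all genes was 0.32. The other members of that complex on the list were BIRC5 (survivin) and CDCA8 (borealin). BIRC5 had 1.24, 3.45 and 4.82 CPM in the border zone and 0.99, 2.28 and 7.70 CPM in the remote zone and was higher in 3 of 6 animals, with a log2 fold change of 0.11 (SE 0.487, edgeR adjusted p = 0.918) that turned to -0.22 without animal 1022. CDCA8 was under the filter and higher in 6 of 6 animals, with medians of 0.561 CPM in the border zone and 0.173 CPM in the remote zone.

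TOP2A (ENSSSCG00000017473, chr12:22001300-22028452, plus strand), the topoisomerase that untangles sister chromatids, had a CPM of 0.971, 3.23 and 13.7 in the border zone and of 0.52, 0.818 and 2.33 in the remote zone. It was higher in 6 of 6 animals, with a log2 fold change of 2.05 (SE 0.594, edgeR adjusted p = 0.0778). Animal 1022 gave the highest value, and the next border zone library was at 3.54 CPM. Without animal 1022 the log2 fold change was 1.21. The condensin subunits NCAPG, NCAPH, SMC2 and SMC4, which compact chromosomes, had log2 fold changes of 0.86, 1.29, 0.85 and 0.51, and were higher in 5, 4, 5 and 5 animals. FOXM1, the transcription factor of the late cell cycle, had medians of 0.649 CPM in the border zone and 0.287 CPM in the remote zone, with a log2 fold change of 1.67 (SE 0.527, edgeR adjusted p = 0.0911). Without animal 1022 the log2 fold changes of FOXM1 and NCAPH were 1.04 and 0.73.

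In the fit without the block, the 3 largest log2 fold changes of members tested were those of spindle and kinetochore genes, while with the animal as a replicate block that of CCNB1 (2.19) was above those of CENPF (1.99) and KIF11 (1.95). CENPF (ENSSSCG00000015581, chr9:128948386-129012241, minus strand) had a CPM of 0.243, 0.996 and 6.81 in the border zone and of 0.0792, 0.324 and 0.572 in the remote zone, with a log2 fold change of 2.77 (SE 0.771, edgeR adjusted p = 0.068). CENPE, the kinetochore motor, had 0.146, 0.747 and 3.63 CPM in the border zone and 0.0669, 0.225 and 0.436 CPM in the remote zone, with a log2 fold change of 2.30 (SE 0.679, edgeR adjusted p = 0.0807). Both were higher in 5 of 6 animals and lower in animal 1922. Without animal 1022 the log2 fold changes of CENPF, KIF11 and KIF20A were 1.75, 1.66 and 1.58, and CENPE did not pass the filter. KIF11 (ENSSSCG00000010471, chr14:104125839-104177381, plus strand), the motor that pushes the spindle poles apart, had 0.471, 1.31 and 5.35 CPM in the border zone and 0.0669, 0.45 and 0.594 CPM in the remote zone. It was higher in 6 of 6 animals, with a log2 fold change of 2.24 (SE 0.629, edgeR adjusted p = 0.0699). KIF20A, with the lowest p of the list, had 0.631, 1.90 and 6.15 CPM in the border zone and 0.156, 0.63 and 0.839 CPM in the remote zone, and was higher in 6 of 6 animals, at a log2 fold change of 2.15 (SE 0.588). CENPF overlaps LOC106505039 by 52739 bases and KIF20A overlaps CDC23 by 1811 bases, both on the opposite strand. Of the 13 genes of this role, 12 were higher in 5 or 6 animals. The exception was NUSAP1, a microtubule-bundling protein, which had 10.5, 14.3 and 16 CPM in the border zone and 12.0, 13.6 and 15.9 CPM in the remote zone, and a log2 fold change of 0.01 (SE 0.143, edgeR adjusted p = 0.978). NUSAP1 overlaps NDUFAF1 and OIP5 on the opposite strand by 18319 bases, and the part of their reads in its count was not tested.

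Of the genes of late mitosis, CDC20, which activates the anaphase-promoting complex, had 0.53, 1.59 and 6.97 CPM in the border zone and 0.23, 0.458 and 0.936 CPM in the remote zone, with a log2 fold change of 2.20 (SE 0.612, edgeR adjusted p = 0.068) and higher levels in 6 of 6 animals. UBE2C, the ubiquitin-conjugating enzyme of that complex, was higher in 5 animals, with a log2 fold change of 1.61. ANLN and ECT2, which act at the contractile ring, were higher in 5 animals each, with log2 fold changes of 0.70 and 0.73. Without animal 1022 the log2 fold changes of CDC20, UBE2C, ANLN and ECT2 were 1.46, 0.91, 0.34 and 0.54. The 12 members under the filter, 1 of S phase and 11 of mitosis, had border zone medians between 0.304 and 1.28 CPM and remote zone medians between 0.089 and 0.321 CPM. Among these 12, the border zone value was the higher one in 5 or 6 animals for 10 members and in 4 animals for CDC6 and BUB1. A fit of 30085 genes with no filter gave the 12 members log2 fold changes from 1.35 to 2.75 and edgeR adjusted p from 0.102 to 0.249. In that fit the median of all genes was 0.75.

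Levels between genes were compared as CPM per kilobase of the longest RefSeq transcript, which 50 of the 51 members had. By this level in the remote zone, the median was highest for PCNA with 13.6, RRM1 with 10.5, MCM7 with 4.87, NUSAP1 with 3.56, MCM6 with 2.54, AURKB with 1.65, BIRC5 with 1.56 and CDC45 with 1.38. The log2 fold changes of these 8 genes ran from -0.56 to 0.90, and MCM6 was the only one of them above 0.11. The remote zone level that ordered them is also one side of that difference. The lowest was ASPM, a spindle pole protein, with 0.0159 CPM per kilobase in the remote zone and 0.0606 in the border zone.

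Genes of the cell cycle outside the list were read from 5 further groups of 79 genes, of which 75 had an identifier and 64 were tested. Among the 64, edgeR called 3 higher and 0 lower in the border zone at an adjusted p-value under 0.05, while at an unadjusted p-value under 0.05 there were 15 and 1. The shares over all genes in this fit were 2.07% for the adjusted threshold and 17.0% and 7.78% for the unadjusted one. MYBL2, which encodes B-MYB, had medians of 1.83 CPM in the border zone and 0.445 CPM in the remote zone, with a log2 fold change of 3.02 (edgeR adjusted p = 0.0447, and 0.0798 with the animal as a replicate block). UHRF1, which keeps DNA methylation at the fork, had medians of 1.99 and 0.607 CPM, with a log2 fold change of 2.74 (edgeR adjusted p = 0.0493, and 0.0773 with the block). CDKN2B, the CDK inhibitor p15, had medians of 0.826 and 0.249 CPM, with a log2 fold change of 2.23 (edgeR adjusted p = 0.0467, and 0.0814 with the block). Without animal 1022 the edgeR adjusted p of MYBL2, UHRF1 and CDKN2B was 0.124, 0.126 and 0.117, at log2 fold changes of 2.21, 2.14 and 1.48, and with the block as well it was 0.049991, 0.0475 and 0.0716, at 1.97, 1.76 and 1.47, so that MYBL2 and UHRF1 passed. Without animal 1323, 1623, 1922 or 3622 their adjusted p ran from 0.0841 to 0.148, while the log2 fold changes stayed between 2.97 and 3.20, 2.46 and 3.07, and 2.13 and 2.35. In those 4 fits 3, 0, 15 and 0 of all genes were called.

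Of the 5 further genes read whatever their result, CCND1 (cyclin D1) had medians of 181.1 CPM in the border zone and 185.5 CPM in the remote zone and a log2 fold change of 0.05, and CDK4, its kinase, had 27.5 and 25.3 CPM and a log2 fold change of 0.13. CDKN1A, the CDK inhibitor p21, had medians of 60.2 and 27.8 CPM and was higher in 6 of 6 animals, with a log2 fold change of 0.88 (SE 0.407, edgeR adjusted p = 0.202). CDKN1C, the inhibitor p57, had a log2 fold change of 0.04. CDKN2A, which encodes p16, was under the filter, with border zone values from 0.0487 to 2.15 CPM and remote zone values from 0 to 0.052 CPM, and was higher in 6 of 6 animals. Over the 64 genes the median log2 fold change was 0.21, against 0.04 over all genes tested.

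Markers of other cell types were summed in each library. The summed CPM of 8 fibroblast and matrix genes was 3010 to 66593 in the border zone, with a median of 8336, and 1025 to 2562 in the remote zone, with 7 of the 8 genes called higher by edgeR, against 2.07% of all genes called. With the animal as a replicate block 1 of the 8, POSTN, was called (edgeR adjusted p = 0.041), against 0.296% of all genes, and 0 of the 39 members. The 9 cardiomyocyte genes summed to 11032 to 57621 CPM in the border zone and 48570 to 82460 CPM in the remote zone, lower in 6 of 6 animals, with 0 called. The 9 macrophage genes summed to 130 to 1643 CPM and 117 to 252 CPM, with 1 called, LYZ (edgeR adjusted p = 0.0404, and 0.0814 with the block). The 7 smooth muscle and pericyte genes summed to 472 to 2955 CPM and 209 to 568 CPM, the 7 endothelial genes to 344 to 496 CPM and 245 to 570.1 CPM, the 10 lymphocyte genes to 8.62 to 76.9 CPM and 9.20 to 16.4 CPM, the 3 neutrophil genes to 0.437 to 7.63 CPM and 0.134 to 0.955 CPM, and the 3 erythroid genes to 3.12 to 14.2 CPM and 2.86 to 24.5 CPM. Of the smooth muscle, endothelial, lymphocyte, neutrophil and erythroid genes, 0 were called by edgeR. DESeq2 called 7 matrix, 5 macrophage, 4 smooth muscle and 1 neutrophil genes higher, against 8.57% of all genes, and 1 cardiomyocyte gene lower. With the block and animal 1022 left out, edgeR called each matrix gene but DCN higher, and also CNN1 and CSPG4, against 4.11% of all genes. It called TNNI3 lower in that fit. The border zone sum was the higher one in 6 animals for matrix, in 5 for macrophages, smooth muscle and lymphocytes, in 4 for neutrophils, in 3 for endothelium and in 2 for the erythroid genes. No marker was at 0 in all libraries. The border zone library of animal 1022, which was highest for 42 of the 51 members, also held the highest matrix, smooth muscle, endothelial, macrophage, lymphocyte and neutrophil sums and the lowest cardiomyocyte sum of that region. In that library CSF3R gave 7.40 of the 7.63 CPM of the neutrophil sum, and NKG7 gave 40.0 of the 76.9 CPM of the lymphocyte sum. The other neutrophil genes, S100A8 and S100A12, were highest in the border zone library of animal 3622. The part of these cell types in the member differences was not tested.

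Without animal 1022, 13 of 38 members had an unadjusted p-value under 0.05, against 17.1% of all genes in that fit, and 0 were called by edgeR, against 1.18%. There the median log2 fold change was 0.71, with 0.64 over S phase and 0.75 over mitosis. With the animal as a replicate block and animal 1022 left out, a fit added after the data were seen, 4 members were called higher by edgeR, against 4.11% of all genes. They were TYMS (adjusted p = 0.0324), MCM6 (adjusted p = 0.0297), KIF20A (adjusted p = 0.0341) and CCNB1 (adjusted p = 0.0424). Without the border zone library of animal 3622, 0 of 40 members were called, against 1.12% of all genes, and the median log2 fold change was 1.06.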

How the data were processed

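RNA was sequenced in 12 libraries, 1 border zone and 1 remote zone library of each of 6 pigs, grouped by the titles of the samples. The deposited files hold raw counts per gene, which the authors made by STAR alignment to Sscrofa11.1 and featureCounts, from poly(A) libraries that were not directional. Reads of transplanted human cells could not be told apart from pig reads in these counts. Gene symbols paired 15623 of 35682 identifiers. The members and gene lists were chosen with earlier results of these data known.

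Counts were filtered by filterByExpr, scaled by TMM and tested by region with the robust quasi-likelihood test of edgeR 4.0.16 in R 4.3.3, with Benjamini-Hochberg adjustment and a threshold of 0.05. Standard errors were taken as the size of the log2 fold change over the root of the F statistic. Promoters were read from the RefSeq genome and annotation of the same build with Python 3.11.15, pandas 2.3.3 and NumPy 2.4.6. Alternatives were the animal as a replicate block, DESeq2 1.42.0, other scalings and filters, pseudocounts and libraries left out. The genes named with values are 12 members fixed by name, the 3 largest and 3 smallest log2 fold changes of each list, and 5 other cell cycle genes with any past the threshold. Other members are named by role with counts and ranges, and those given with single values outside this rule were chosen after their values were seen.

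A number in the titles names the animal, so libraries with the same number were pairs. Across genes, the deviations of a pair from its region means had a mean correlation of 0.35 (lowest -0.03, highest 0.57), above 0.1 in 4 of 6 animals. No 2 of the libraries agreed within sampling noise. Totals ran from 15130210 to 31618680 counts, and the 6 libraries a region and the low counts limit the precision. On simulated data of this comparison with 13844 genes and 200 changed, 80% of 4-fold changes and 17% of 2-fold changes were recovered by edgeR, with 2 false calls, and 88% and 35% by DESeq2, with 25.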

Additional observations from a re-analysis of the deposited data

Results flagged for a closer look

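Of 42 groups of 6 libraries checked, for the 2 list means and the 19 named members, 6 had a library whose gap to its nearest neighbour exceeded Dixon's 95% critical share of the whole range in CPM. The critical share is set for such a gap in about 1 of 20 groups of normal values. CPM was not shown to be normal, and genes of 1 library are not independent. Some named members were also chosen by their log2 fold change, so the 6 of 42 are not read against that rate. In the border zone, animal 1022 stood apart for TOP2A at 13.7 CPM against 3.54 CPM in the next library, for CCNA2 at 1.88 against 0.682 CPM, for MCM5 at 17.9 against 7.52 CPM, for MCM4 at 15.7 against 4.84 CPM and for KIF11 at 5.35 against 1.65 CPM. In the remote zone, animal 1322 stood apart for CCNB1 at 1.07 CPM against 0.401 CPM in the next library.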

How the results depend on the processing

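The count of members with an adjusted p-value under 0.05 was 0 in the quasi-likelihood fit and stayed at 0 with the animal as a replicate block, with DESeq2 size factors, with no filter, with at least 10 counts in every library, without mitochondrial genes and without the border zone library of animal 3622. It was 15 by DESeq2, 16 with library totals (which called 1551 of all genes), 0 to 1 with each animal left out, and 4 with the replicate block and animal 1022 left out. Of all genes 287 were called in the quasi-likelihood fit, 41 with the block, 211 with DESeq2 size factors, 139 with no filter, 149 with at least 10 counts, 254 without mitochondrial genes, 156 without the border zone library of animal 3622, and 0 without animal 1623 or 3622. At an unadjusted p-value under 0.05 the count was 26 of 39, and 25 of 39 with the replicate block. It was 16 of 24 with at least 10 counts in every library, and 17 of 38 with the block and animal 1022 left out. With each animal left out it was 13 to 27 of 37 to 42 tested, the lowest without animal 1022. Over all genes 17.0% were higher and 7.78% lower in the quasi-likelihood fit, and 17.1% passed without animal 1022. The shares of the other fits at this threshold are not given here. The count of other cell cycle genes called was 3, all higher in the border zone. It was 0 under the replicate block, DESeq2 size factors, no filter, at least 10 counts and without the border zone library of animal 3622. DESeq2 called 9 of the 64, 8 higher and 1 lower, while it called 1476 of the 13844 genes tested. Library totals also gave 9 of 64, against 11.2% of all genes. Leaving out 1 animal at a time gave 0 to 4. The list differences had medians of 0.35 to 0.65 for S phase and 0.63 to 1.09 for mitosis with each animal left out, 0.31 and 0.42 with a pseudocount of 1 CPM, and 0.58 and 1.11 with 0.01 CPM.

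Signs turned for members near 0. PCNA was at 0.25 with library totals, 0.00026 with at least 10 counts, 0.058 without the border zone library of animal 3622, and -0.12 to 0.031 with each animal left out. CDC45 and RRM1 were at 0.26 and 0.21 with library totals. MCM7, not among the members counted below, moved from -0.01 to 0.061 without animal 1322. With library totals all 15 S phase members tested were above 0. NUSAP1 was at -0.030 by DESeq2, -0.031 with DESeq2 size factors, -0.039 with no filter, -0.0095 without the border zone library of animal 3622, and -0.044 to 0.050 with each animal left out. BIRC5 was at -0.22 to 0.46 with each animal left out, the lowest without animal 1022, and -0.076 with the replicate block and animal 1022 left out. The cause was not tested. Of 231 values of the named members under alternatives, 17 changed sign, 21 passed the threshold and 193 kept the sign and stayed above it. No named member had a call to lose.

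Members with a few counts per library limit what can be seen. In the simulation edgeR recovered 80% of 4-fold changes and 17% of 2-fold changes. Those changes were put on genes drawn at random from all genes tested, with no animal effect, so recovery at the members' own counts was not tested. With all 6 animals the replicate block changed no call of a member. The counts at an unadjusted p-value, those of other cell cycle genes and the fits with the block and animal 1022 left out were added after the data were seen.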
